A study of Mus musculus with 30 samples.

Results

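The longest span of a retinoic acid time course that lies within a comparable set of arrays, 72 h against 12 h, was examined in KH2 mouse embryonic stem cells. The comparison uses 6 of the 30 arrays of the study: 3 arrays at 12 h (replicate letters D, E and F) and 3 at 72 h (A, B and C). Both groups are the same line, KH2, an established mouse embryonic stem cell line built for inducible transgenes, and both carry the treatment label retinoic acid, with the times given as 12 hours and 72 hours. No untreated group, genotype difference or transgene is named in the labels of these arrays, so the contrast is between a late and an early time under retinoic acid, not between treated and untreated cells. The other 3 arrays at 12 h (A, B and C) were left out, because their spike-in controls differ from those of every later array. They serve only as an alternative reference.

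Cells grew on a layer of feeder fibroblasts and, per the labels' protocols, received 0.3 uM retinoic acid in a serum medium, a dose that the protocol states in a sentence on treatments of a few hours. Colonies were then trypsinised and replated for 30 minutes on gelatin before lysis. The protocols describe that step in 2 ways, with RNA from the cells that adhered or from the pelleted medium, and the deposited values do not settle which was used. A line on feeders is a mixed culture, and in bulk RNA fewer cells of a type and less RNA per cell cannot be told apart. The labels do not say that arrays of a group come from separate cultures, so the p-values cover the spread among these arrays, which may be technical, and no more. Their number limits the precision.

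The values are log2 intensities of 45101 Affymetrix probe sets, reduced to 18193 genes with 1 probe set each. On these 6 arrays the median level was 6.34 to 6.38 and the upper quartile 8.56 to 8.69, and in 0 of 6 pairs within a group were the values identical. The difference between the spike-in controls BioDn and BioC was 1.41 to 1.44 log2 at 12 h and 1.49 to 1.63 at 72 h, against 1.00 to 1.07 on the 12 h arrays left out. Array sets were recognised from such controls and are not named in the labels. The embryonic stem cell markers Pou5f1, Nanog, Sox2, Zfp42 and Esrrb had means between 10.27 and 13.40 at 12 h and between 9.53 and 12.34 at 72 h, so all 5 were bright in both groups. No detection calls come with these values. A level of 4.73, the lowest lower quartile of the 18 arrays of the set, was therefore used as a floor, and a fold against a group under it is given as "at least".

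Retinoic acid, made from vitamin A, enters the nucleus and binds heterodimers of the receptors RAR and RXR, which sit on paired hexamers in regulatory DNA and switch from repression to activation on binding the ligand. In the embryo it gives cells a posterior identity through the Hox genes, and in embryonic stem cells it ends self-renewal and drives neural and extraembryonic differentiation. The pathway limits itself: Rarb encodes a receptor that is also a target, and Cyp26a1 encodes a cytochrome P450 that degrades the ligand.

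The promoters of these 2 genes are shown because they are the only called members of the retinoid lists whose promoter window held the repeat searched for. The search took the hexamer AGGTCA, its variant AGTTCA, the variant GGGTCA or the variant GGTTCA, each with any other, as a direct repeat with 5 bases between them, on both strands, in RefSeq windows (GRCm38.p6) from 250 bases before to 50 after the start of transcription. The last 100 bases before the start are printed 5′ to 3′ on the gene's strand, with the hexamers in capitals. The Rarb stretch is chr14:16575477-16575576 on the minus strand and the Cyp26a1 stretch is chr19:37697708-37697807 on the plus strand.
Rarb: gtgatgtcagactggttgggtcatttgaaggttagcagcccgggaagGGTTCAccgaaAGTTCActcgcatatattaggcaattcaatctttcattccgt
Cyp26a1: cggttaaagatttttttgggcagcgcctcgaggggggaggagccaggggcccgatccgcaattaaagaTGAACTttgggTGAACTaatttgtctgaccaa
The Rarb repeat runs from 53 to 37 bases before the start, and that of Cyp26a1 lies on the opposite strand, 32 to 16 bases before it. Of 31 genes of the retinoid lists, 24 had a window in the table. Such a repeat occurred in 32 of all 32851 windows (0.0974%), and of the 11 tested genes that hold it 4 were called, where 57.6% of all genes were, and 1, Rarb, was called higher by at least 1 log2, as were 6.85% of all genes. A match is a description of the letters and not evidence of binding.

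Between 12 h and 72 h most of the genes measured shifted. A gene was called at a limma adjusted p under 0.05 over all 18193 genes. At that threshold 4522 genes (24.9%) were higher and 5949 (32.7%) lower at 72 h, together 57.6%. Counts of called members in each gene list below are to be read against these shares. The lists were chosen with earlier results of these data known, so an excess over these shares is a description and not independent support. With each array centred on the median of its genes the share of calls that were higher fell from 43.2% to 25.2%, and the median change of all genes moved from -0.09 to -0.27 log2, so small changes are read only relative to that shift. Of all genes, 1247 (6.85%) were called higher by at least 1 log2 and 487 (2.68%) lower, and 97 against 7 passed 3 log2 (0.533% and 0.0385%). With centred arrays the counts past 1 log2 were 965 higher and 803 lower, so the excess of large rises depends on the scaling. The arrays of the groups did not overlap for 1243 of the 1247 large rises (6.83% of all genes) and for all 487 large falls (2.68% of all genes). Over all 18193 genes, whatever the size of change, the 72 h arrays lay all above the 12 h arrays for 5002 and all below for 6969.

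**Figure D1:**
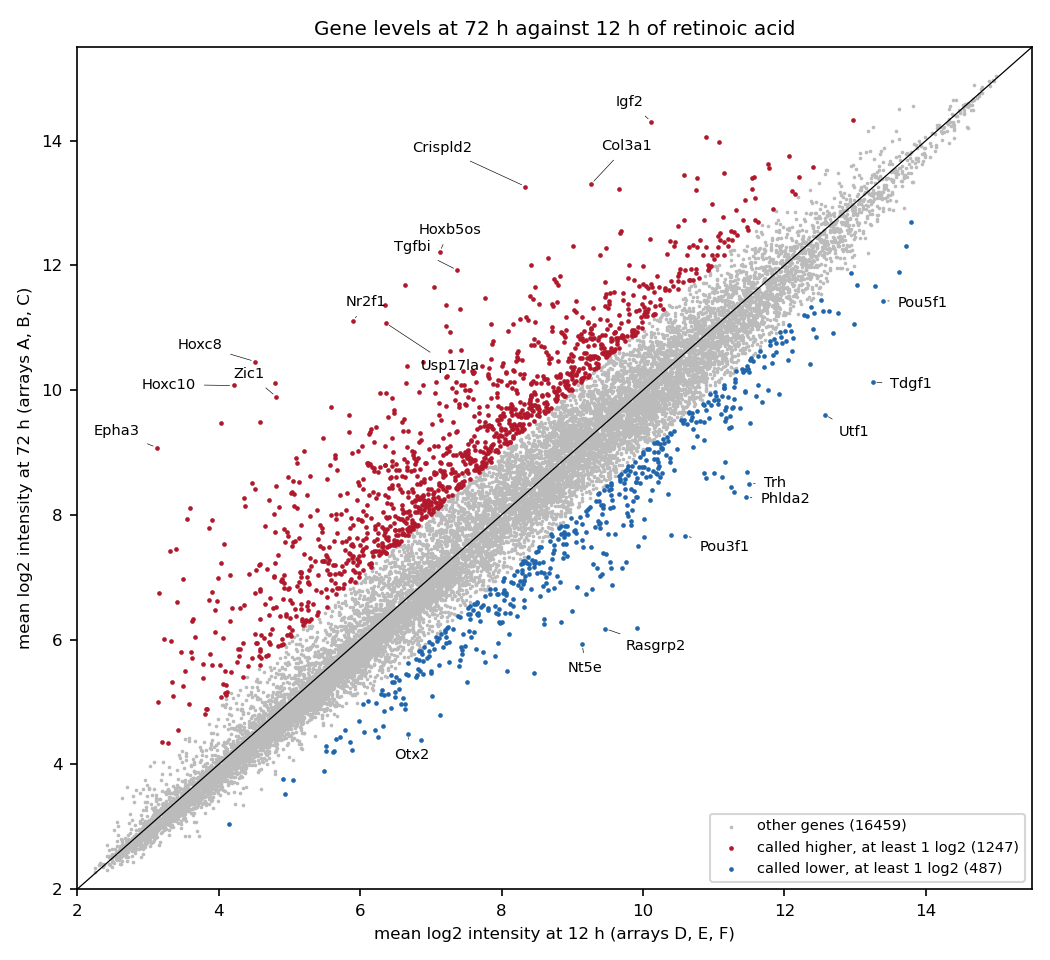
Mean log2 intensity of each of 18193 genes on the 3 arrays at 72 h (vertical) against the 3 arrays at 12 h (horizontal), with genes called and changed by at least 1 log2 in red (1247 higher) or blue (487 lower) and the line of equality drawn. Red points reach much farther from the line than blue ones: 97 genes rose by 3 log2 or more and 7 fell by as much.

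Among the largest rises were 2 orphan nuclear receptor genes. Nr2f1, which encodes the orphan nuclear receptor COUP-TFI, read 5.84, 5.72 and 6.14 on the 12 h arrays and 11.34, 10.77 and 11.20 on the 72 h arrays. It rose by 5.20 ± 0.17 log2 (SE), or 36.9-fold (limma adjusted p = 9.9e-13). Its relative Nr2f2 (COUP-TFII) read 6.64, 6.64 and 6.63 and then 11.87, 11.62 and 11.56, a rise of 5.04 ± 0.11, which was 3.35 on the mean of its 6 probe sets. Neither gene's groups came near to overlapping. Zic1, a zinc finger gene of the dorsal neural tube and somites, went from 4.89, 4.80 and 4.75 to 10.30, 9.67 and 9.71. The transcript Hoxb5os, annotated on the strand opposite Hoxb5, rose by 5.08 ± 0.11 (7.13, 7.09 and 7.15 against 12.21, 12.25 and 12.17), while Hoxb5 itself fell by 0.40 in the same arrays.

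Other large rises included genes of secreted and matrix proteins. Crispld2, a secreted cysteine-rich protein gene, rose by 4.92 ± 0.15 (8.26, 8.27 and 8.48 against 13.31, 13.22 and 13.26). Tgfbi, which encodes a matrix protein induced by TGF-beta, rose by 4.55 ± 0.12, and Fbn2, which encodes the microfibril protein fibrillin-2, by 4.61 ± 0.14. Igf2, the imprinted growth factor, reached one of the highest levels on the arrays: 10.28, 10.12 and 9.95 at 12 h and 14.42, 14.33 and 14.16 at 72 h, a rise of 4.19 ± 0.12. Cyp1b1, a cytochrome P450 that can oxidise retinol, rose by 4.15 ± 0.12 (2.55 on the mean of its probe sets), the LIM homeobox gene Lhx1 by 4.13 ± 0.15, the fibrillar collagen gene Col3a1, also a marker of the feeder fibroblasts, by 4.04 ± 0.36 and Ptn, the heparin-binding growth factor pleiotrophin, by 3.88 ± 0.20. The error of Col3a1 was the largest of these.

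Another group of large rises began below the floor of 4.73, so only a bound can be given. Hoxc8 read 4.56, 4.41 and 4.58 at 12 h and 10.65, 10.44 and 10.28 at 72 h, at least 52.9-fold higher (limma adjusted p = 1.8e-12). Hoxc10 (4.25, 4.10 and 4.29 against 10.25, 10.23 and 9.74) was at least 40.6-fold higher. Ednrb, the endothelin receptor of neural crest cells, was at least 27.2-fold and Epha3, an ephrin receptor, at least 20.3-fold higher. These bounds hold for the brightest probe set: on the mean of all its probe sets the change was 2.21 log2 for Ednrb and 3.2 for Epha3. These 4 genes were under the floor on every 12 h array and read between 8.81 and 10.65 at 72 h.

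Several of the strongest rises come from multicopy families whose probe sets can bind near-identical copies, so which copy was measured is uncertain. Gm20767 rose by 5.32 ± 0.25 (4.81, 4.75 and 4.82 against 9.92, 10.20 and 10.20), AF067061 by 5.01 ± 0.24 and Usp17la by 4.72 ± 0.29, and BC080696 was at least 26.7-fold higher. Of these, Usp17la and 2 genes that were under the floor at 12 h, Tcstv1 (at least 10.4-fold higher) and Tcstv3 (at least 3.65-fold higher), belong to a list of genes expressed in 2-cell-like and germ cells. In that list of 20, 7 were called higher and 6 lower, and 25% rose by at least 1 log2, against 6.85% of all genes. Rhox6 and Rhox9, homeobox genes of the X-linked reproductive cluster, rose by 1.99 and 1.6, whereas Sycp3, a meiotic chromosome axis gene, fell by 1.79.

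The uncharacterised 2610528J11Rik fell the most, by 3.73 ± 0.21 log2 (10.00, 9.96 and 9.80 against 6.06, 6.35 and 6.16). Rasgrp2, an exchange factor for Rap GTPases, fell by 3.28 ± 0.16 and Phlda2, an imprinted gene that restrains placental growth, by 3.17 ± 0.16. Tdgf1, the Nodal coreceptor Cripto, fell by 3.12 ± 0.14 (13.34, 13.12 and 13.28 against 9.90, 10.47 and 10.01) and Trh, a hormone precursor gene, by 3.00 ± 0.11. The amino acid transporter genes Slc7a7 and Slc7a3 fell by 2.80 ± 0.20 and 2.78 ± 0.25, and Eras, an embryonic stem cell Ras gene, by 2.91 ± 0.14. Gm9564 (3.01), 1700019D03Rik (2.72), the pluripotency-associated transcript Platr10 (2.69) and Enox1 (2.59) also fell by these log2 amounts. Mei4, Platr22 and Fbp1, the last a gluconeogenic phosphatase gene, ended under the floor and were at least 4.36-fold, 2.95-fold and 2.68-fold lower. Serpinb2, a serine protease inhibitor gene, read 6.14, 5.86 and 6.74 and then 4.51, 3.52 and 5.29, at least 2.51-fold lower (limma adjusted p = 0.036), a call lost without 12 h array D or F and without 72 h array A or B.

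Nt5e, which encodes the ecto-enzyme CD73, shows how much a result can rest on the choice of 12 h arrays. It read 9.21, 9.13 and 9.08 on D, E and F and 5.81, 6.19 and 5.79 at 72 h, a fall of 3.21 ± 0.17. The 12 h arrays A to C averaged 6.55, and with them as reference the fall was 0.62 log2.

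Within the retinoid pathway the carriers called were higher, and the nuclear receptors divided, with Rarb and Rxra higher and Rarg, Rxrg, Rara and Rxrb lower. Of 10 carriers and receptors measured, 5 were called higher and 4 lower, and 40.0% rose by at least 1 log2 against 6.85% of all genes. Rarb read 7.75, 7.92 and 7.93 at 12 h and 10.99, 10.62 and 10.60 at 72 h, a rise of 2.87 ± 0.13 (limma adjusted p = 2.6e-11). Stra6, the membrane receptor for retinol-binding protein, rose by 2.36 ± 0.09, and the cytoplasmic binding proteins Crabp2 and Crabp1 by 2.01 ± 0.13 and 2.00 ± 0.13. Crabp2 did so unevenly: its mean was 10.38 at 12 h, 13.71 at 36 h and 12.40 at 72 h. By contrast Rarg, the main RAR of undifferentiated stem cells, fell by 1.38 ± 0.08 (10.90, 11.02 and 10.89 against 9.39, 9.67 and 9.61). Rxrg fell by 1.14, Rara by 0.55 and Rxrb by 0.42, while Rxra rose by 0.83, a value that was 0.13 and not called on the mean of its 3 probe sets. Rbp4, the plasma carrier, differed by 0.48 without passing the test.

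Of 9 enzymes that make or degrade retinoids, 5 were called higher and 1 lower. Cyp26b1, the second of the degrading enzymes, went from 6.70, 6.91 and 6.69 to 9.10, 9.08 and 8.86, a rise of 2.25 ± 0.15. Rdh10 and Dhrs3, which interconvert retinol and retinal, rose by 1.49 ± 0.14 and 0.96 ± 0.08, and the retinal dehydrogenase Aldh1a1, under the floor at 12 h, was at least 2.48-fold higher. Cyp26a1 was already bright at 12 h, with 12.32, 12.36 and 12.41, and reached 13.24, 13.22 and 13.16, a rise of 0.84 ± 0.13 that was 0.07 and not called against the 12 h arrays A to C. Aldh1a3 fell by 0.33, a call lost without 12 h array D or 72 h array B, and Aldh1a2, Rdh11 and Lrat were not called.

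Of 12 other genes known as retinoic acid targets, 7 were called higher, 0 lower, and their median change was 1.53 against -0.09 for all genes. Beside Nr2f1, Nr2f2 and Cyp1b1, the zinc finger gene Tshz1 rose by 3.71 ± 0.10, Zfp503 by 2.25 ± 0.15 and the transglutaminase gene Tgm2 by 2.22 ± 0.20. Stra8, the gametogenesis gene named for its response to retinoic acid, was bright and not called, with a mean of 13.15 at 12 h, a mean of 12.91 at 72 h and overlapping arrays. Nrip1, Bhlhe40, Dhrs7 and Ncoa7 were also not called, with changes between -0.10 and 0.09.

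The Hox clusters hold genes in the order in which they act along the body axis, from paralogue group 1 in the hindbrain to group 13 at the tail. By 12 h on arrays D to F many 3′ members of the A and B clusters were already high, and the span to 72 h added mainly C and D cluster genes and more posterior members. Of 10 anterior genes measured (groups 1 to 4), 5 were called higher and 2 lower. Hoxc4 rose by 2.37 ± 0.13 (7.70, 7.78 and 7.97 against 10.38, 10.07 and 10.12), Hoxd1 by 2.47 ± 0.19, Hoxa2 by 1.33 and Hoxb3 by 1.10, and Hoxd3 was at least 5.57-fold higher. Hoxb2 (change 0.05), Hoxa3 (0.04) and Hoxb4 (-0.25) did not pass the test and read between 9.31 and 11.20 on the 6 arrays. Hoxb1 read 11.99, 11.92 and 12.01 at 12 h and 10.99, 11.17 and 11.01 at 72 h, a fall of 0.92 ± 0.11, after a mean of 12.98 at 24 h. Hoxa4 fell by 0.44.

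Of 9 central genes (groups 5 to 8), 7 were called higher and 2 lower. Hoxc8 stood first. Hoxc5 rose by 3.17 ± 0.17 (6.18, 6.02 and 6.18 against 9.54, 9.25 and 9.12), Hoxc6 by 2.17 and Hoxd8 by 2.16, whereas Hoxa5, Hoxb6 and Hoxa7 rose by only 0.88, 0.43 and 0.40. The rise of Hoxa7 lost its call without 12 h array D or F or without 72 h array B, at 0.25 to 0.39. It was also not called with only the 6 arrays compared (0.40), with arrays centred (0.22) or with arrays quantile normalised again (0.25). Hoxb5 and Hoxb7 fell by 0.40 and 0.32. Among the 14 posterior genes (groups 9 to 13), 8 were called higher and 0 lower, and 42.9% rose by at least 1 log2. Hoxc9 rose by 3.05 ± 0.13 (7.09, 7.24 and 6.89 against 10.35, 10.21 and 9.81), Hoxa9 by 2.96 ± 0.16 (8.52, 8.86 and 8.94 against 11.84, 11.76 and 11.61), Hoxb9 by 1.63, Hoxa10 by 1.49 and Hoxd9 by 1.18. Hoxc13 (0.76) and Hoxa11 (0.49) rose less. The rise of Hoxa10 was 0.07 and not called on its other probe set. Hoxd10, Hoxd11, Hoxd12 and Hoxa13 stayed under the floor in both groups, and Hoxb13 and Hoxd13 were not called.

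**Figure D2:**
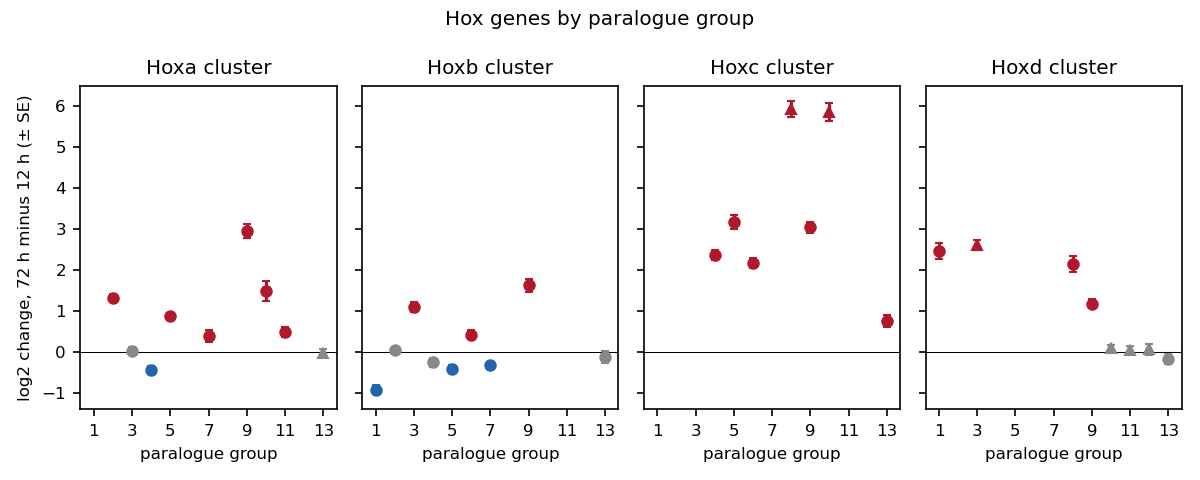
Change in log2 intensity from 12 h to 72 h of each measured Hox gene (vertical, with the standard error of the fit) by paralogue group (horizontal) in the 4 clusters. Red is called higher, blue called lower and grey not called, and triangles mark genes with a group mean under the floor of 4.73. The C cluster lies highest, with Hoxc8 and Hoxc10 above 5 log2, while the middle of the B cluster lies near 0.

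The cofactors of Hox proteins rose with them in part. Of 11 Cdx and TALE homeobox genes, 5 were called higher and 2 lower, with a median change of 0.07 that turned to -0.10 when arrays were centred. Meis1 went from 8.01, 8.01 and 8.24 to 11.06, 10.90 and 10.86, a rise of 2.86 ± 0.12, and Meis2 rose by 1.72, Meis3 by 1.28 and Pknox2 by 1.04. Cdx2, a caudal gene that controls posterior Hox genes, fell by 0.54 (not called without 12 h array F or 72 h array A, at -0.48 and -0.45), Cdx1 (-0.28) was not called, and Cdx4 was under the floor in both groups.

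Genes of pluripotency fell, but not together. Of 30 measured, 22 were called lower and 5 higher, and 40.0% fell by at least 1 log2 against 2.68% of all genes. Pou5f1, which encodes OCT4, read 13.30, 13.53 and 13.37 at 12 h and 11.13, 11.58 and 11.59 at 72 h, a fall of 1.96 ± 0.14 (limma adjusted p = 7.4e-09). Utf1 fell by 2.96 ± 0.12, the TGF-beta family ligand Gdf3 by 2.19, Fgf4 by 2.09, Nr0b1 by 2.02, Zscan10 by 1.83, Dppa3 by 1.73 and the RNA-binding protein gene Lin28a by 1.6. Nanog, by contrast, overlapped between the groups, with 12.43, 12.53 and 12.40 against 12.20, 12.46 and 12.37. Its change of -0.11 ± 0.10 did not pass the test (limma adjusted p = 0.35). Sox2 (0.97), Zfp42 (0.87), Esrrb (0.74) and Klf4 (0.79) fell by under 1 log2, and Tfcp2l1 (0.02) and Prdm14 (-0.38) were not called. Against the 12 h arrays A to C, Klf4 was not called and Nanog (-0.30), Prdm14 (-1.6) and Tfcp2l1 (-0.61) were lower.

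Several of these genes were lower at 60 h than at 72 h. Nanog averaged 11.53 at 60 h and 12.34 at 72 h, Pou5f1 10.69 and 11.44, Esrrb 8.42 and 9.53, and Tdgf1 8.98 and 10.13. The genes of the list that rose were the LIF receptor subunits Lifr (1.13) and Il6st (0.81), their effector Stat3 (0.57), Tbx3 (0.59) and Fbxo15 (0.57).

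Genes of the formative and primed epiblast, the state that follows naive pluripotency in the embryo, fell as well. Of 21 measured, 14 were called lower and 4 higher, with a median change of -0.67. Pou3f1, a POU factor of primed and early neural cells, went from 10.82, 10.40 and 10.57 to 7.67, 7.61 and 7.72, a fall of 2.93 ± 0.12. The anterior homeobox gene Otx2 (6.50, 6.80 and 6.72 against 4.24, 4.75 and 4.49) was at least 3.83-fold lower, and the FGF-responsive Etv4 fell by 1.82. The 3 largest rises of the list were Cdh2, encoding N-cadherin (2.62), Sox11 (2.25) and Sox4 (1.68), which neural cells also express.

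Most of the DNA methylation machinery was lower at 72 h. Of 12 genes, 9 were called lower and 1, the methyl-CpG binding protein gene Mbd2, higher (0.63). Tet1, which oxidises methylcytosine, fell by 2.04 ± 0.09 (11.44, 11.61 and 11.47 against 9.36, 9.56 and 9.49), the de novo methyltransferase gene Dnmt3b by 1.57 ± 0.07 and its cofactor gene Dnmt3l by 1.51 ± 0.15. Dnmt3a fell by 1.03 on its brightest probe set but differed by 0.01 on the mean of its 5 probe sets. Dnmt1, the maintenance enzyme, differed by 0.01 and was not called, but fell by 0.17 with arrays centred.

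Of 29 neural progenitor genes measured, 17 were called higher and 4 lower, and 48.3% rose by at least 1 log2, where 6.85% of all genes did. After Zic1 and Ednrb, the largest rises were Plagl1 (2.91), the SOX factor gene Sox9 (2.72 ± 0.17, from 6.12, 6.04 and 6.16 to 8.84, 8.77 and 8.90, but 1.63 on the mean of its probe sets), the dorsal gene Pax3 (2.36) and Irx3 (2.31 ± 0.06). Markers fixed for progenitors were uneven: Fabp7 rose by 2.08, Nes by 1.14 and Pax6 by 0.68, whereas Sox1 (8.4, 8.27 and 8.49 against 8.99, 8.50 and 8.73) did not pass the test. Sox1 had averaged 10.15 at 36 h. Fabp7 stayed between 5.87 and 6.16 on average up to 60 h and read 7.44, 7.94 and 8.48 at 72 h.

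Of 13 hindbrain segmentation genes, 10 were called higher and 2 lower, together 92.3% against 57.6% of all genes. The list is not separate from those above: Nr2f1, Irx3, Cyp26b1, Meis2, Hoxa2 and Hoxb1 are counted there too. Against the 12 h arrays A to C, 3 of the 12 calls changed sign. The ephrin gene Efnb2 rose by 1.5, and Gbx2, a homeobox gene of the anterior hindbrain, fell by 2.32 ± 0.11 (11.07, 11.39 and 11.03 against 8.70, 8.87 and 8.98), a fall of 0.42 against the 12 h arrays A to C. Egr2, the gene of rhombomeres 3 and 5, rose by 0.77 from 12 h to 72 h, after 9.03 on average at 36 h and 7.0 at 48 h.

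Proneural and neuronal genes came late. Of 37 measured, 23 were called higher and 6 lower. The median change was 0.57, or 0.39 with genes under the floor at their bound. The mean level of the list was 6.69 at 12 h, 6.76 at 48 h, 7.16 at 60 h and 7.55 at 72 h. The 60 h arrays were spread, at 6.88, 7.37 and 7.22. Nhlh2 was at least 11.7-fold and the proneural gene Neurod4 at least 2.95-fold higher than at 12 h. Dpysl3, which encodes a growth cone protein, rose by 2.88 ± 0.17 and Map2, a dendrite microtubule protein gene, by 2.56 ± 0.18 (0.82 on the mean of its probe sets). Of the neuron markers, Elavl3 rose by 0.59 (but fell by 0.51 against the 12 h arrays A to C), Tubb3 (0.68, limma adjusted p = 0.051) and Dcx (0.01, but 1.25 and called on the mean of its 4 probe sets) were not called, and Stmn2 fell by 1.12. In the Notch pathway 7 of 18 genes were called higher and 5 lower, together 66.7% against 57.6% of all genes. The receptors Notch1 (1.64) and Notch3 (1.42) rose most, and the list median of 0.21 was 0.03 with arrays centred.

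Of 31 axon guidance receptors and ligands measured, 22 were called higher and 3 lower, and 38.7% rose by at least 1 log2. After Epha3 the largest were the semaphorin coreceptor Nrp1 (6.60, 6.59 and 6.78 against 10.42, 10.40 and 10.33, a rise of 3.73 ± 0.17), the plexin gene Plxna2 (3.06), the Slit receptor gene Robo1 (2.92, or 1.69 on the mean of its probe sets), Sema3c (2.71) and the netrin receptor gene Unc5c (2.57). Against the 12 h arrays A to C, 5 of the 22 genes called higher changed sign.

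Of 11 endoderm transcription factor and receptor genes, 8 were called higher and 2 lower, with 63.6% up by at least 1 log2. Sox17 went from 6.83, 7.25 and 7.11 to 9.71, 10.16 and 9.98, a rise of 2.89 ± 0.14. Foxa1 rose by 1.90, Foxa2 and Sox7 by 1.62 each, Gata4 by 1.58, the chemokine receptor gene Cxcr4 by 1.49 and Gata6 by 1.12, whereas Hhex fell by 0.52, Foxa3 fell by 0.68 and Hnf4a was not called.

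Products of parietal endoderm, the cells that lay down the basement membrane of the yolk sac, were called higher for 19 of 19 genes, and 84.2% rose by at least 1 log2. Plat, the tissue plasminogen activator gene, rose by 3.81 ± 0.08 (7.29, 7.21 and 7.14 against 11.03, 10.96 and 11.09), the follistatin gene Fst by 3.66 ± 0.22, the laminin gene Lama1 by 3.02 ± 0.14 and the collagen IV genes Col4a2 and Col4a1 by 2.77 and 2.64. Nid1 (1.18, limma adjusted p = 0.012) and Thbd (0.90, limma adjusted p = 0.045), markers with wide spread between arrays, lost the call when single arrays were left out. Nid1 fell to 0.98 without 12 h array E and 0.88 without 72 h array C. Thbd fell to 0.56 without 72 h array C and also lost the call without 12 h array D, E or F or 72 h array A. With arrays centred (0.72) or quantile normalised again (0.73) Thbd was not called. Fibroblast markers moved in the same direction as these matrix genes (26 of 29 called higher), and their part in the rises was not tested. Of 21 visceral endoderm products 4 were called higher and 8 lower, where 24.9% and 32.7% of all genes were, with a median of -0.08 that lies at the -0.09 of all genes. S100g (1.66), Dab2 (1.29), Cited1 (1.12) and Cubn (1.05) rose. Afp (5.55, 5.44 and 5.37 against 5.30, 5.48 and 5.59) and Amn were not called, while the apolipoprotein genes Apoa2 and Apoa1 fell by 1.87 and 0.75 and the transthyretin gene Ttr by 0.43.

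Mesenchymal genes rose together with markers of the feeder cells. Of 29 embryonic fibroblast markers, 26 were called higher and 0 lower, and none was under the floor. Their summed linear level was 21450 to 31050 at 12 h and 83320 to 126200 at 72 h. The mean log2 level of the list was 8.77, 8.35 and 9.10 on arrays D, E and F and 10.87, 10.22 and 11.10 on A, B and C, so array E at 12 h and array B at 72 h were lowest. Its standard deviation between arrays was 0.37 and 0.46, against at most 0.15 for each other list. Postn shows that spread, with 8.29, 6.23 and 8.64 at 12 h and 10.99, 9.37 and 10.80 at 72 h. Col1a1 rose by 3.59 ± 0.57 (limma adjusted p = 4.5e-05) and Dcn by 1.84 ± 0.54 (limma adjusted p = 0.0087, and not called without 12 h array E or 72 h array A, at 1.38 and 1.30), while Col6a3, S100a4 and Lum were not called. Other calls of the list were also fragile. Thy1 (1.29) and Bgn (1.38) lost theirs without 12 h array D or E or 72 h array A or C, and Bgn also with a trended and robust variance prior. Col6a2 (0.74) lost its call without 12 h array E or 72 h array C and against the 12 h arrays A to C (0.29). Fbln2 rose by 1.98, or 1.02 on the mean of its probe sets, but was 0.07 and not called without probe sets of lettered types.

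Of 20 neural crest and mesenchymal transition genes, 15 were called higher and 3 lower, and 60.0% rose by at least 1 log2. Cdh11 rose by 3.22 ± 0.35, Cdh6 by 3.05 ± 0.15, Twist1 by 2.61 ± 0.10, Ets1 by 2.45 ± 0.13 and the transcription factor gene Snai2 by 2.06 ± 0.26 (0.87 without probe sets of lettered types). The epithelial adhesion genes Epcam and Cdh1 fell by 1.42 and 0.78, and Sox10, a marker of migrating crest, differed by 0.00. Twist1 and Fn1 of this list are also fibroblast markers. The part of the feeder signal in these rises was not tested. The values of Cdh11, like the mean of the fibroblast list, were lowest on array E at 12 h and array B at 72 h. Spread over 3 arrays does not assign a rise to a cell type.

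Of 29 primitive streak and mesoderm genes, 12 were called higher and 7 lower, together 65.5% against 57.6% of all genes. The median of 0.06 turned to -0.12 when arrays were centred, and was 0.01 with genes under the floor at their bound. Hand2, a gene of heart and limb mesoderm, went from 5.27, 5.06 and 4.96 to 8.83, 9.10 and 8.79 (3.81 ± 0.24, or 1.61 on the mean of its probe sets), Foxc2 rose by 3.76 and the somite gene Meox1 by 3.57 ± 0.10. Tcf15, another somite gene, fell by 1.87, and of the streak genes Fgf8 fell by 1.82 and Mixl1 by 1.01, whereas Gsc rose by 0.75. Tbx6 was not called, at 5.12 to 5.29 on the 6 arrays. Of 20 trophoblast and simple epithelium genes, 8 were called higher and 5 lower, together 65% against 57.6% of all genes. Gata3 (3.82 ± 0.12) and Krt7 (2.34 ± 0.32) rose, while Tpbpa was under the floor in both groups and Elf5 not called.

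**Figure D3:**
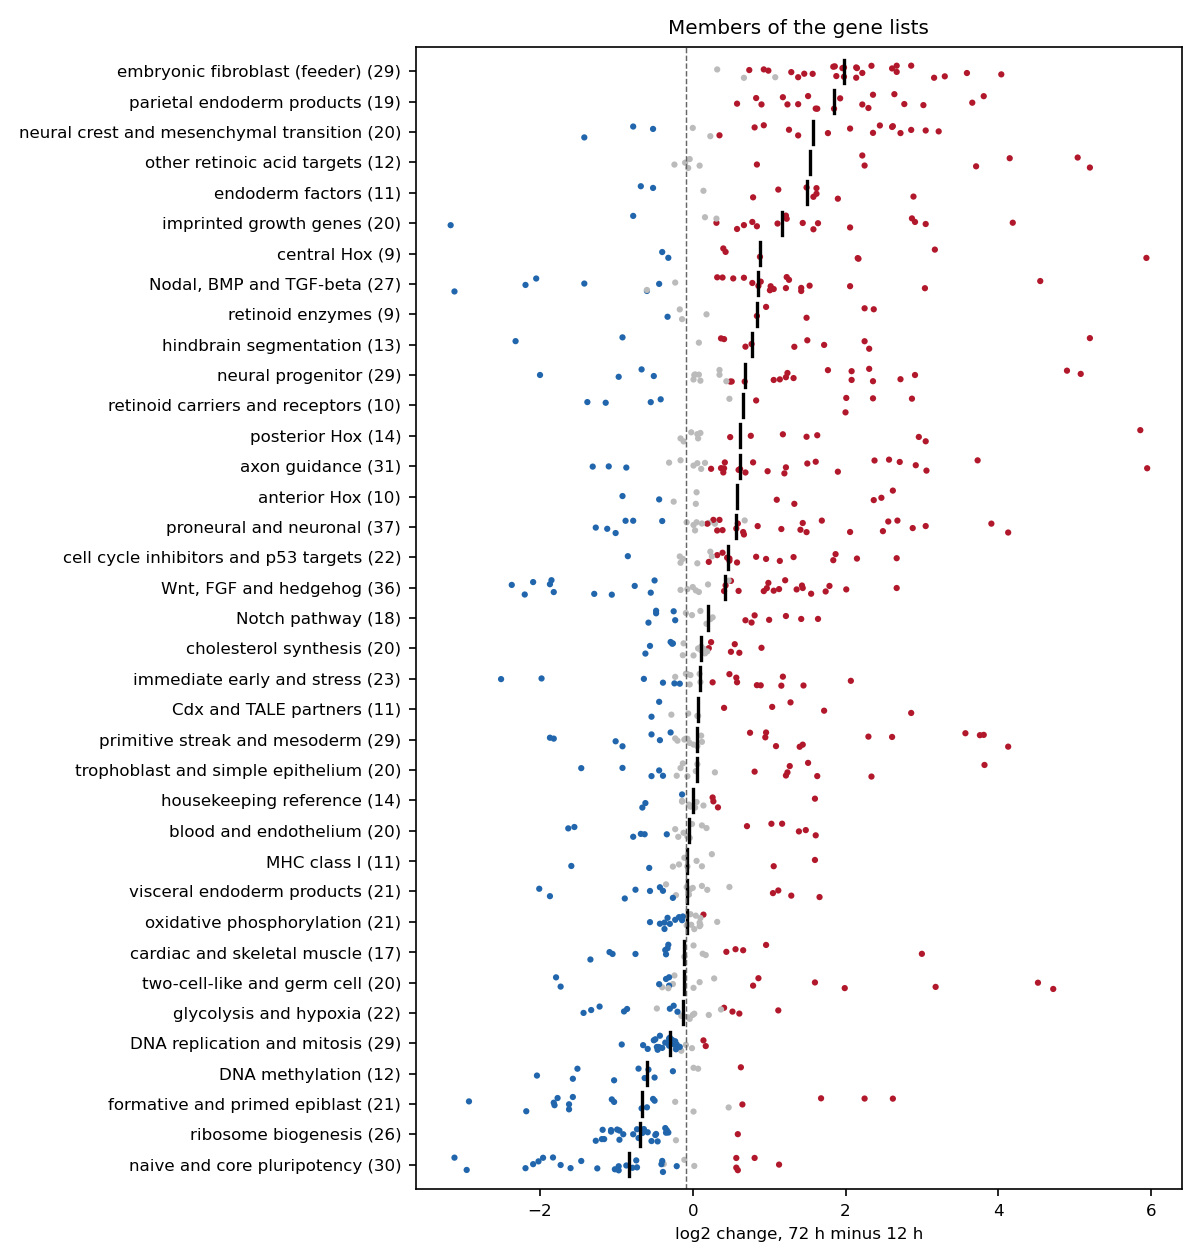
Change in log2 intensity from 12 h to 72 h (horizontal) of every measured member of 37 gene lists (rows, number of members in brackets), each point 1 gene, red called higher, blue called lower and grey not called. Black bars are list medians and the dashed line is the median of all genes, -0.09. Fibroblast markers (median 1.98) and parietal endoderm products (1.85) lie highest, and pluripotency (-0.83) and ribosome biogenesis (-0.69) lowest.

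Signalling genes changed in both directions. Of 27 genes of the Nodal, BMP and TGF-beta pathways, 19 were called higher and 6 lower. Tgfb2 rose by 3.04 ± 0.17 (5.44, 5.59 and 5.58 against 8.69, 8.39 and 8.64), and Msx2, a target of BMP signals, rose by 2.06. The genes that fell, besides Tdgf1 and Gdf3, were the activin subunit gene Inhbb (2.05), the Nodal inhibitor gene Lefty1 (1.42), the ligand gene Nodal (0.60) and Bmp4 (0.44). The effector gene Smad3 rose by 1.23 and Inhba, another activin subunit gene, by 1.06. The Inhba call was lost on the mean of its probe sets (0.45), with centred arrays (0.88) and with arrays quantile normalised again (0.92). It was also lost with a trended and robust variance prior, without 12 h array D, E or F and without 72 h array A or C. Lefty2 (-0.60) was not called. Of 36 Wnt, FGF and hedgehog genes, 18 were called higher and 11 lower. The Wnt inhibitor gene Sfrp5 rose by 2.67 and Wnt4 by 2.01, whereas the hedgehog effector gene Gli1 fell by 2.37 ± 0.09 (9.52, 9.45 and 9.31 against 6.86, 7.11 and 7.20), while Wnt8a fell by 2.2 and the FGF feedback gene Spry4 fell by 1.87.

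Genes of proliferation and of ribosome production were mostly lower. Of 29 DNA replication and mitosis genes, 24 were called lower and 2 higher, where 32.7% of all genes were lower and 24.9% higher. Yet 0 changed by 1 log2. The list median was -0.30 against -0.09 for all genes, or -0.47 against -0.27 with arrays centred. Ccne1, the cyclin of S phase entry, fell the most, by 0.93 ± 0.14. Of 26 ribosome biogenesis genes, 24 were called lower and 1 higher, and 23.1% fell by at least 1 log2 (median -0.69), with Ddx21 (1.27 ± 0.14), Rrp9 (1.19) and Rrp12 (1.18) first. Of 22 cell cycle inhibitor and p53 target genes, 15 were called higher and 1 lower. Cdkn2b went from 7.59, 7.63 and 7.58 to 10.30, 10.24 and 10.26 (2.67 ± 0.13), Cdkn2a rose by 2.15, Btg2 by 1.87 and Cdkn1a, which encodes p21, by 1.84. The 14 housekeeping genes had a median change of 0.00 and 4 higher against 3 lower calls, and that median changed sign with the scaling.

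The course between the end points used the other 12 arrays of the set. These steps share arrays with the comparison above and are given as description. Of the 1247 genes higher by at least 1 log2, the largest single step fell between 12 h and 24 h in 445 (35.7%), between 24 h and 36 h in 169 (13.6%), between 36 h and 48 h in 302 (24.2%), between 48 h and 60 h in 227 (18.2%) and between 60 h and 72 h in 104 (8.34%). The median share of the final rise already present was 26.9% at 24 h, 53.5% at 36 h, 77.1% at 48 h and 88.5% at 60 h. Only 363 (29.1%) rose at every step. Of the 487 falling genes the median had 105% of its fall at 60 h, and 53 (10.9%) were called higher again from 60 h to 72 h, against 4.39% of all genes.

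**Figure D4:**
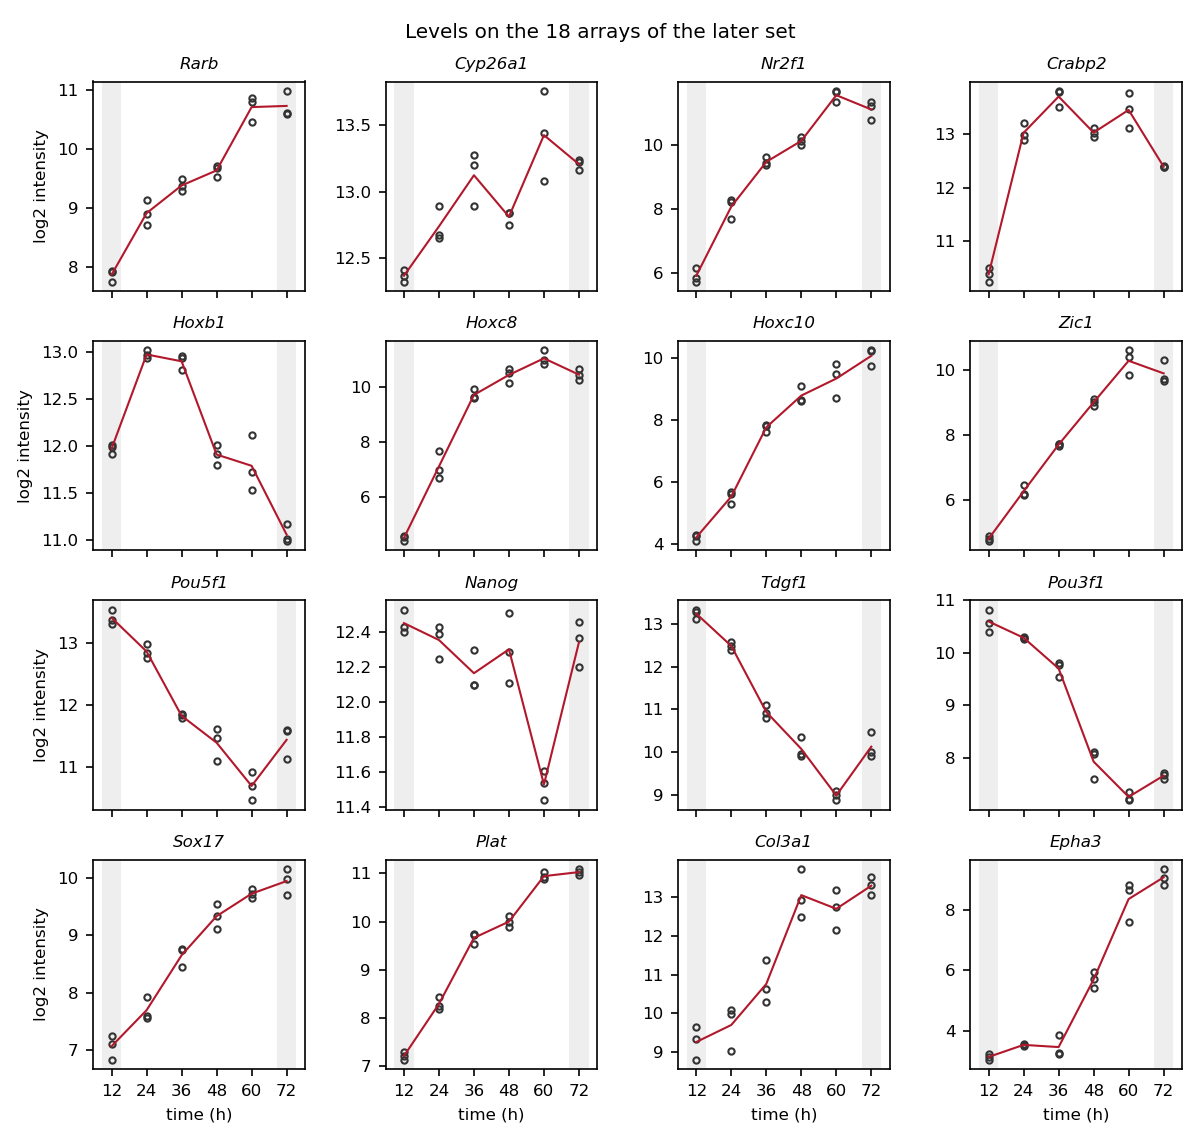
Log2 intensity (vertical) of 16 genes on the 18 arrays of the set by time in hours (horizontal), circles single arrays and lines the mean of 3 arrays, with the 12 h and 72 h groups shaded. Rarb and Plat climb at every step, Nr2f1 and Hoxc8 up to 60 h, Hoxb1 peaks at 24 h and Crabp2 at 36 h, Col3a1 steps up between 36 h and 48 h, and Pou5f1, Nanog and Tdgf1 are lowest at 60 h.

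Lists differed in when they moved. The other retinoic acid targets averaged 8.93 at 12 h, 9.94 at 24 h, 10.46 at 36 h and 10.85 at 72 h, so most of their rise came early. Parietal endoderm products averaged 9.31 at 12 h, 9.55 at 24 h, 10.76 at 48 h and 11.28 at 72 h. Central Hox genes were highest at 60 h (9.45, against 9.13 at 72 h), while posterior Hox genes were highest at 72 h (7.22, against 6.95 at 60 h). Fibroblast markers averaged 9.45 at 36 h, 10.87 at 48 h, 10.30 at 60 h and 10.73 at 72 h. The mean of the pluripotency list was 11.31 at 12 h, 9.99 at 60 h and 10.42 at 72 h.

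**Figure D5:**
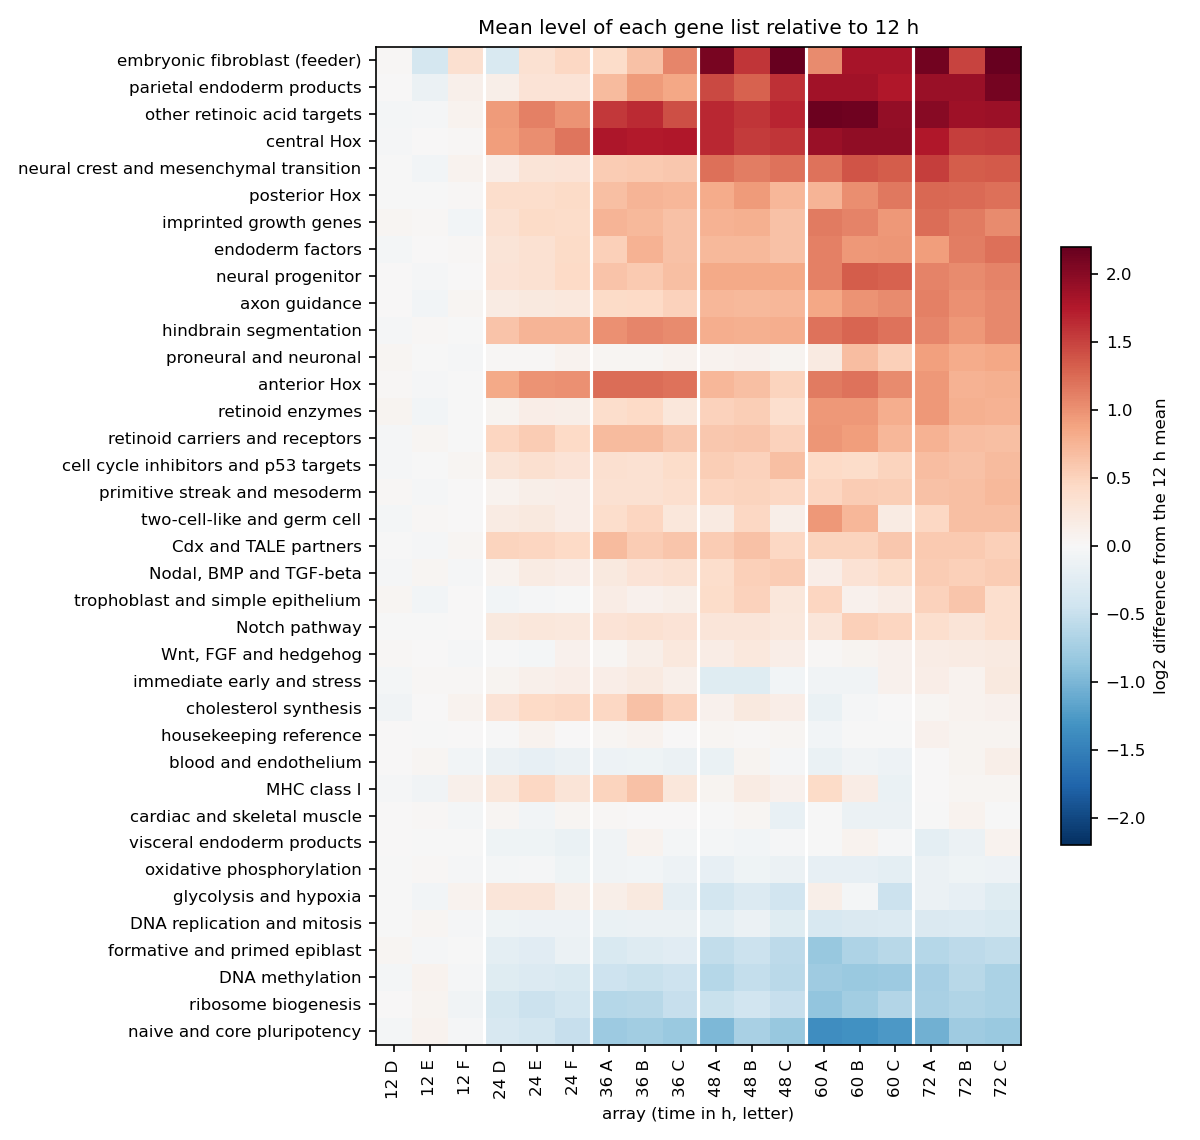
Mean log2 level of each of 37 gene lists (rows) on each of the 18 arrays of the set (columns, time in hours and letter), shown as the difference from the 12 h mean, red higher and blue lower. Fibroblast markers lie above the 12 h mean on every array from 36 h, on average most at 48 h, and vary between arrays of one time. Retinoic acid targets are red from 24 h, and the pluripotency list is bluest at 60 h.

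The probe set chosen for a gene also mattered. On the mean of all probe sets of the gene the change stayed called and kept its direction but was smaller by over 1.5 times for further named genes: Plat rose by 2.47, Ptn by 2.43, Hoxa9 by 1.92, Meis1 by 1.76, Ets1 by 1.31, Msx2 by 1.08, Efnb2 by 0.88, Sox7 by 0.76, Gata6 by 0.64 and Pax6 by 0.20. By the same measure Rasgrp2 fell by 2.04, Utf1 by 1.87, Enox1 by 1.47, Nt5e by 1.43, Tet1 by 1.30 and Inhbb by 1.24. The same held for the rises of Dlk1 (1.65), Dcn (0.85), Hoxa10 (0.78), Lifr (0.74), Pknox2 (0.57), Smad3 (0.45), Tbx3 (0.38), Mbd2 (0.28) and Stat3 (0.27).

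The choice of 12 h arrays mattered for many Hox genes. Levels on arrays D to F were above those on arrays A to C for many of them. Hoxa9 averaged 6.04 on A to C and 8.77 on D to F, Meis1 6.19 and 8.09, and Hoxb1 10.84 and 11.97. With A to C as the reference the median change of the anterior Hox list was 2.09 in place of 0.58 and that of the central list 2.59 in place of 0.88. Hoxa4, Hoxb5 and Cdx2 then rose, by 1.54, 1.26 and 0.54, and Hoxb1 was no longer called (0.21). Foxa1 rose by 0.26 in place of 1.90, Enox1 fell by 1.28 in place of 2.59 and Mixl1 fell by 0.32 in place of 1.01, while Plagl1 rose by 4.72 in place of 2.91 and Cubn by 2.66 in place of 1.05. Against the same arrays Cdh2 rose by 4.38, Zfp503 by 3.45, Efnb2 by 2.99, Sox7 by 2.80, Dab2 by 2.36, Cited1 by 2.05 and Pax6 by 1.11, each over 1.5 times its change against D to F, and Inhbb fell by 3.60, Otx2 by 3.53, Esrrb by 1.64 and Rara by 1.07. Gdf3 fell by 1.30, Lin28a by 0.98, Dnmt3b by 0.95, Fgf8 by 0.94, Dnmt3l by 0.74, Ddx21 by 0.56 and Ccne1 by 0.55, in each case less than against D to F. Fbxo15 (0.08) and Ttr (-0.15) were no longer called. Which of the 2 sets of 12 h arrays gives the level of a cell at 12 h was not tested.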

How the data were processed

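RNA of KH2 cells was hybridised to Affymetrix arrays from 200 ng per the labels' protocols. The authors deposited log2 intensities of 45101 probe sets per array, and the submitters' processing notes name limma 3.8.3. The background correction and normalization are not given in the sources used here. Of the probe sets, 64 were controls, 9160 had no gene symbol in the platform annotation, 932 had several and 34945 had 1. The probe set with the highest mean over the 30 arrays stood for each of 18193 genes, of which 9010 had more than 1. All 30 columns matched a sample. No detection calls come with the values, so the depth of each array is described by its quartiles alone, and 2470 genes lay under the floor in both groups.

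A model with 6 groups (12 h D to F, 24 h D to F, 36 h, 48 h, 60 h and 72 h) was fitted to 18 arrays with lmFit and eBayes (limma 3.58.1, R 4.3.3), and 72 h minus 12 h D to F was taken with Benjamini-Hochberg adjustment over all genes. The procedure was tested on simulated data. Named genes are, among those called and without overlap of the arrays, the 15 that rose most and the 15 that fell most, up to 5 in each direction with a group under the floor, and, of each of 37 lists, up to 6 with the largest change, plus members of the retinoid, Hox, Cdx and TALE, pluripotency, endoderm and fibroblast lists and the cell type markers. The members and lists were chosen with earlier results of these data known. Other settings were tried for the arrays in the fit, the 12 h reference, the scaling, the filter on dim genes (under the 30th percentile), the choice of probe set, the variance prior, array weights and each array left out, with 2 more added after the data were seen. Sequences come from RefSeq promoters of GRCm38.p6.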

Additional observations from a re-analysis of the deposited data

How the results depend on the processing

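Of the 1734 genes called and changed by at least 1 log2, 1722 to 1732 were called the same way when any of the 6 arrays was left out, 1721 on the mean of all probe sets (1 the opposite way), 1535 of 1592 measured without probe sets of lettered types (4 the opposite way) and 1681 with the 12 h arrays A to C as reference (2 the opposite way). With single arrays left out, 9401 to 9763 genes were called, 4209 to 4354 higher and 5105 to 5507 lower, and 1685 to 1817 of them by at least 1 log2, 1208 to 1306 higher and 452 to 520 lower. The counts of falls depended on the reference and the scaling. At 1 log2 or more, 758 genes were lower against the 12 h arrays A to C, and 803 with arrays centred on their medians, where 10092 genes in all were called lower. Centring on the medians of all probe sets, added after the data were seen, gave a median change of -0.11 and 40.8% higher among the calls. Leaving out the 60 h arrays, also added then, kept all 1734 calls. Of the 512 genes of the lists that were called, 40 changed sign against the 12 h arrays A to C, 18 of them higher and 22 lower against D to F. Among the genes named here the sign turned for Hoxa4 (1.54), Hoxb1 (0.21), Hoxb4 (0.79), Hoxb5 (1.26), Hoxd13 (0.57), Cdx2 (0.54), Ncoa7 (0.32), Tfcp2l1 (-0.61), Elavl3 (-0.51), Amn (0.87), Dnmt1 (-0.16), Myh6 (0.10) and Ttn (0.03), and the cause was not tested. It also turned for Dnmt1 with centred arrays (-0.17), for Dnmt3a on the mean of all probe sets (0.01) and for Tnnt2 without probe sets of lettered types (-0.19). Without detection calls, signal over background limits what can be said of genes under the floor. No paired analysis was possible because the letters D, E and F at 12 h and A, B and C at 72 h share no replicate.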

Other observations

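Imprinted growth genes, expressed from one parental copy and acting on fetal and placental growth, rose with Igf2 and Plagl1. Of 20 measured, 16 were called higher and 2 lower, and 55% rose by at least 1 log2 against 6.85% of all genes. Peg3 read 10.55, 10.60 and 10.60 on the 12 h arrays and 13.58, 13.41 and 13.36 on the 72 h arrays, a rise of 2.87 ± 0.07 (limma adjusted p = 1.3e-13), or 1.87 on the mean of its probe sets. Dlk1, which encodes a membrane protein of the Notch ligand family, went from 8.85, 8.74 and 8.63 to 12.09, 11.75 and 11.52, a rise of 3.05 ± 0.13 that was 0.25 and not called without probe sets of lettered types. Nnat rose by 2.06 ± 0.10, and Igf2r, the receptor that clears the Igf2 product, by 1.64 ± 0.28. Phlda2 fell, as described above.

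Of 23 immediate early and stress genes, 10 were called higher and 6 lower, together 69.6% against 57.6% of all genes. The list median of 0.09 was -0.09 with arrays centred. The transcription factor genes Jun (9.37, 9.45 and 9.60 against 11.78, 11.39 and 11.46), Atf3 and Fos rose by 2.07 ± 0.20, 1.45 ± 0.09 and 1.18 ± 0.14. Chac1 and Trib3, genes of the amino acid and unfolded protein response, fell by 2.51 ± 0.34 and 1.98 ± 0.18. Of 22 glycolysis and hypoxia genes, 4 were called higher and 8 lower, together 54.5%, near the 57.6% of all genes. Pdk1 was lower by 1.43 ± 0.20 log2 and Egln3 by 1.33 ± 0.29. Of 20 cholesterol synthesis genes, 6 were called higher and 5 lower (55%), and of 21 oxidative phosphorylation genes 1 higher and 10 lower (52.4%). Both sums are also near that of all genes, and in both lists 0 genes changed by 1 log2 or more. By direction the oxidative phosphorylation calls were mostly lower, where 24.9% of all genes were higher and 32.7% lower. The median of that list was -0.08, against -0.09 for all genes.

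Of 20 blood and endothelium genes, 6 were called higher and 6 lower, shares near the 24.9% and 32.7% of all genes: Cdh5, the cadherin of endothelium, rose by 1.48 ± 0.22 (0.74 on the mean of its probe sets), while Pecam1, also expressed by stem cells, fell by 1.55 ± 0.16 and Ptprc was under the floor in both groups. Of 17 muscle genes, 5 were called higher and 8 lower, together 76.5% against 57.6% of all genes. By at least 1 log2, 1 gene rose and 3 fell. The rise was that of Actc1, cardiac actin, by 3.00 ± 0.27 (7.07, 7.24 and 7.34 against 10.25, 10.49 and 9.90). Ttn fell by 1.34 and the cardiac marker Myh6 by 1.09, or by 0.61 and 0.55 on the mean of their probe sets. Against the 12 h arrays A to C neither was called (0.03 and 0.10). Without probe sets of lettered types Ttn was also not called (-0.27). Tnnt2, another cardiac marker, rose by 0.66, but was -0.19 and not called without lettered types. Of 11 genes of the MHC class I pathway, 2 were called higher and 2 lower, together 36.4%, under the share of all genes. B2m, the class I light chain, rose by 1.6 ± 0.16.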
